A study of Mus musculus with 4 samples.

Results

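The 8 genes described here, Hmgcs1, Mvk, Mvd, Fdps, Fdft1, Sqle, Lss and Cyp51, encode enzymes of cholesterol synthesis, and they were taken by symbol from the 17335 rows of the deposited expression table. All 8 have a row. The table comes from RNA-Seq of gonadal white adipose tissue (gWAT) of female mice fed a high-fat diet (HFD), for 18 weeks as the series states. One group was AD1KO, in which adiponectin-Cre deletes floxed Dnmt1 in adipocytes, and the other was fl/fl, littermates with floxed but intact Dnmt1. RNA of 4 animals per group was pooled in equal amounts, which gave 1 library per group. The spread between animals therefore cannot be seen, no p-value is given, and each difference compares these libraries with no replicate check. The strain background and the ages of these animals are not given in the sources used here. Adiponectin-Cre acts in adipocytes, so Dnmt1 of the other cells of the fat pad stays intact in AD1KO.

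Cells build cholesterol from acetyl-CoA. The first steps join acetyl-CoA units to HMG-CoA and turn it, by way of mevalonate, into isoprenoids such as farnesyl diphosphate, which also feed protein prenylation and the synthesis of ubiquinone and dolichol. Squalene synthase commits farnesyl diphosphate to sterols, and epoxidation, ring closure to lanosterol and a long series of demethylations and reductions then give cholesterol. The transcription factor SREBP2 is released from the endoplasmic reticulum when membrane cholesterol runs low and raises these genes together, acting with NF-Y, which binds CCAAT boxes, and Sp1, which binds GC boxes. White adipose tissue is a large store of free cholesterol, much of which adipocytes take up from lipoproteins.

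Promoter motifs are described for those of the 8 genes whose promoter was available. The RefSeq promoter table (build GRCm38.p6) holds 5 of the 8 genes, and the 250 bases before the transcription start are shown for the genes with the highest ratios, Hmgcs1 and Mvk, and for Cyp51, whose ratio was near 0. Capitals mark 3 motifs searched on both strands, namely TCACNCCAC (a sterol regulatory element core), CCAAT and GGGCGG, with the reverse complements ATTGG and CCGCCC in capitals too. The motifs do not overlap each other in these genes.
Hmgcs1 (chr13:119690101-119690350, plus strand): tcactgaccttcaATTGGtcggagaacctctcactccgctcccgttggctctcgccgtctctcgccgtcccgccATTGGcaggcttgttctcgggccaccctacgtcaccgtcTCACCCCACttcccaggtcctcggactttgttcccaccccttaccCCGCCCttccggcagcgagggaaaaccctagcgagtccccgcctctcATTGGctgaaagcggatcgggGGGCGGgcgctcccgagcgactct
Mvk (chr5:114444019-114444268, plus strand): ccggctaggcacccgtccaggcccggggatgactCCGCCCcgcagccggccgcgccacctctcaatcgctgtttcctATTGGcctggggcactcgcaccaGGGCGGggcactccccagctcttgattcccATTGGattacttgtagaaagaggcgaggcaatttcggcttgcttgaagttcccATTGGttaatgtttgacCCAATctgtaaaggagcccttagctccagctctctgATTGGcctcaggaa
Cyp51 (chr5:4104698-4104947, minus strand): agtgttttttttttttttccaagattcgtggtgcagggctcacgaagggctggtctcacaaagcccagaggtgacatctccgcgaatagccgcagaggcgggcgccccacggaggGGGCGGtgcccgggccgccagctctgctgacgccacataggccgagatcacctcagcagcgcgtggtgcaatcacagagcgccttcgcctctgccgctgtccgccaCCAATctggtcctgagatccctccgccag

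A CCAAT box and a GC box stood together in the 250 bases of all 5 promoters, those of Mvd and Lss included. Among all 32851 promoters of the table, 11.0% held both, 33.8% a CCAAT box and 32.7% a GC box. Of the 19 synthesis genes listed further on, 16 had a promoter in the table, and 14 of these 16 held both motifs. Mvk had 5 CCAAT boxes, of which the nearest lay 14 to 10 bases before the start. The searched form of the sterol regulatory element core was found in Hmgcs1 alone of the 5, 137 to 129 bases before the start, and in 1.05% of all promoters. The 5 promoters held from 13 CpG sites in Mvk to 28 in Lss, against a median of 6 over all promoters. The shares over all promoters were not matched for CpG sites, and the GC box letters themselves hold a CpG. Whether the motifs are more frequent here than in other CpG-rich promoters was not tested. A match describes the letters in this window and does not show that a factor binds there. Only the exact letters given were searched, so the lack of a match does not show that a promoter lacks such an element.

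Before the genes are compared, the libraries were checked. Dnmt1, the targeted gene (mm9 chromosome 9, 20711650 to 20757317, minus strand), had 6.99 FPKM in the fl/fl library and 3.33 FPKM in the AD1KO library, a log2 ratio of -1.07 (95% counting interval -1.27 to -0.87). FPKM is the authors' expression level, fragments per kilobase of transcript and per unit of sequencing depth, and the value of Dnmt1 covers the whole transcript and not only the floxed exons. Each ratio is log2 of AD1KO over fl/fl after 0.01 FPKM was added to both. The depth was estimated at 17863455 reads in fl/fl and 17633343 in AD1KO, from the steps that whole reads leave in low FPKM values. Counting intervals are exact Clopper-Pearson intervals on the reads so estimated and cover counting error only. Adipocyte markers were abundant in both libraries, with Adipoq at 1911 and 3318 FPKM. The 7 adipocyte markers had log2 ratios from 0.37 to 0.96 (median 0.54) and summed to 15914 FPKM in fl/fl and 24117 in AD1KO. The 9 macrophage markers had ratios from -1.38 to -0.80 (median -1.11) and summed to 4202 and 2042 FPKM. All 4 T cell markers and all 4 markers of dividing cells were past -0.5, and all 3 mesothelial markers were past 0.5. The 3 oviduct and uterus markers summed to 7.4 FPKM in fl/fl and 0.56 FPKM in AD1KO, with Pax8 listed at 0 there. Endothelial markers had ratios from 0.10 to 0.49, stromal markers from -0.17 to 0.31 and B cell markers from -0.70 to -0.03. Of 4 tested steroidogenic (ovary or adrenal) markers, 2 were past 0.5 and 2 past -0.5. They summed to 3.62 FPKM in fl/fl and 3.71 FPKM in AD1KO. In whole tissue, fewer cells of a type and less RNA per cell cannot be told apart. The part of these shifts in the ratio of Dnmt1 and in the values that follow was not tested.

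All 8 synthesis genes had a higher level in the AD1KO library, by amounts that were small for most of them. Hmgcs1 was 1.54-fold higher and was the only one of the 8 past a log2 ratio of 0.5, the study's limit for a changed gene, which 14.3% of 15839 tested genes passed upward and 19.1% passed downward. None of the 8 was past -0.5. Their median log2 ratio was 0.30, against -0.04 over all tested genes, and 45.3% of tested genes had a ratio above 0. The whole counting interval lay above 0 for 6 of the 8, and for 21.6% of tested genes, while those of Sqle and Cyp51 held 0. An interval narrows with more reads, and the 21.6% includes genes with far fewer reads than the 8. These shares are therefore not matched for level. The direction of each of the 8 was the same under each scaling, pseudocount and filter tried, which is no check of it. A shared pseudocount or a filter cannot change a sign, and each rescaling shifted the ratios up. The count past 0.5 was 2 or 3 when the libraries were rescaled, with Mvk passing under each rescaling and Lss under upper quartile scaling. The tested genes are those with at least 0.1 FPKM in a library.

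**Figure D1:**
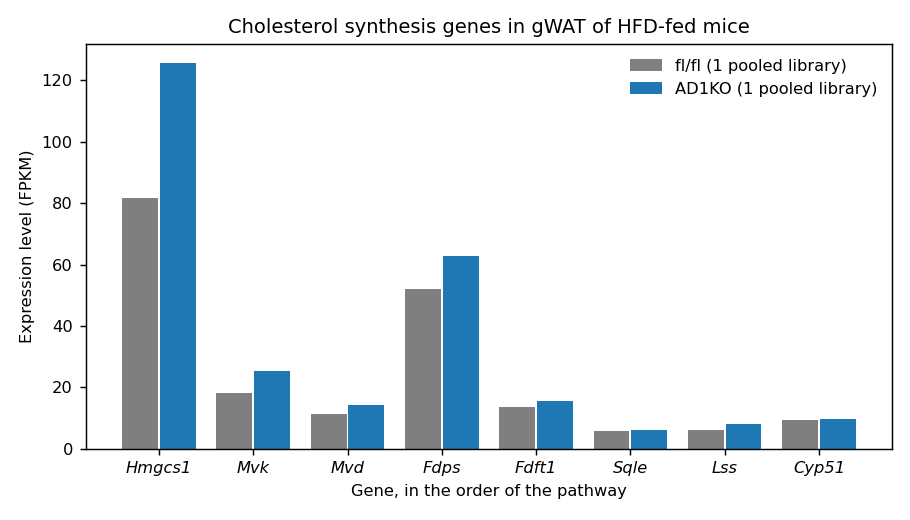
Expression level in FPKM (vertical axis, from 0) of the 8 cholesterol synthesis genes in pathway order, with 1 grey bar for the fl/fl library and 1 blue bar for the AD1KO library; there are no error bars because each group is 1 pooled library. The AD1KO bar is the taller one for each gene, with the widest gap for Hmgcs1 (81.7 and 125.6 FPKM) and near-level bars for Sqle and Cyp51.

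Hmgcs1 encodes the cytosolic HMG-CoA synthase, which makes HMG-CoA for the mevalonate pathway. It was at 81.7 FPKM in fl/fl and 125.6 FPKM in AD1KO, from about 4951 and 7526 reads. Its log2 ratio was 0.62 (95% counting interval 0.57 to 0.67), so that the whole interval lay past 0.5, and 88.9% of tested genes had a ratio at or below it. It was also the most abundant of the 8 per length in both libraries. It made up 41.2% of their summed FPKM in fl/fl and 46.9% in AD1KO.

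Mvk (chromosome 5 of mm9, 114894278 to 114910600, plus strand) encodes mevalonate kinase, which phosphorylates mevalonate. Its level was 18.2 FPKM in fl/fl and 25.4 FPKM in AD1KO, from about 515 and 713 reads. With a log2 ratio of 0.48 (0.32 to 0.65) it stood just short of the limit. Mvd (chromosome 8, 124957496 to 124967322, minus strand), the mevalonate diphosphate decarboxylase, was at 11.5 and 14.4 FPKM and had a log2 ratio of 0.33 (0.12 to 0.54). Its promoter, like those printed, carries a GC box and CCAAT boxes.

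Fdps (chromosome 3, 88897514 to 88905881, minus strand) encodes farnesyl diphosphate synthase, at the branch point to sterols and prenyl groups. It was the second most abundant of the 8, at 52.1 FPKM in fl/fl and 62.9 FPKM in AD1KO. The log2 ratio was 0.27 (0.15 to 0.39) from about 1062 and 1268 reads. One unnamed transcript with the same orthology number was at 0.06 FPKM in fl/fl and listed at 0 in AD1KO. The share of Fdps in the summed FPKM of the 8 was 26.3% in fl/fl and 23.5% in AD1KO.

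Fdft1 (chromosome 14, 63763990 to 63796630, minus strand), the squalene synthase, was at 13.7 FPKM in fl/fl and 15.6 FPKM in AD1KO. Its log2 ratio of 0.19 (0.05 to 0.33) had the interval nearest to 0 of the 6 that lay above it. Sqle (chromosome 15, 59146632 to 59162747, plus strand) encodes squalene epoxidase, a rate-limiting enzyme of the sterol branch, and was the least abundant of the 8 at 5.92 and 6.20 FPKM. With about 276 and 286 reads, its log2 ratio of 0.07 (-0.18 to 0.31) was not told apart from 0 at this depth.

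Lss (chromosome 10, 75994333 to 76019883, plus strand) encodes lanosterol synthase, which closes the sterol rings. It was at 6.04 FPKM in fl/fl and 8.06 FPKM in AD1KO, about 667 and 880 reads, a log2 ratio of 0.42 (0.27 to 0.56). Cyp51 (chromosome 5, 4081145 to 4104746, minus strand), the cytochrome P450 that demethylates lanosterol, was at 9.29 and 9.74 FPKM. Its log2 ratio was 0.07 (-0.08 to 0.22), and its whole interval lay below that of Lss, whose enzyme makes its substrate. Rows with the orthology number of Cyp51 were Lrrd1, listed at 0 and at 0.02 FPKM, and Lrrc40, at 5.10 and 5.27 FPKM.

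The 8 genes did not move by the same amount. Among their 28 pairs, the counting intervals of 9 did not overlap, and 6 of the 9 pairs involved Hmgcs1. Its interval overlapped only that of Mvk. Mvk also lay above Sqle and Cyp51, and Lss above Cyp51. The level of Hmgcs1 was 13.8 times that of Sqle in fl/fl and 20.3 times in AD1KO, a comparison within each library that does not depend on scaling. Summed over the 8, the level was 198.4 FPKM in fl/fl and 267.9 FPKM in AD1KO. Without Hmgcs1 it was 116.7 and 142.3 FPKM.

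The adipocyte markers were higher in AD1KO too. Each of the 8 had a lower log2 ratio than Adipoq, the gene of the fat cell hormone adiponectin, which was at 0.80 (0.78 to 0.81), and the differences from it ran from -0.73 for Sqle to -0.18 for Hmgcs1. Hmgcs1 lay above the median of the 7 adipocyte markers and the other 7 genes below it. The part of adipocyte RNA in the ratios of the 8 was not tested.

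**Figure D2:**
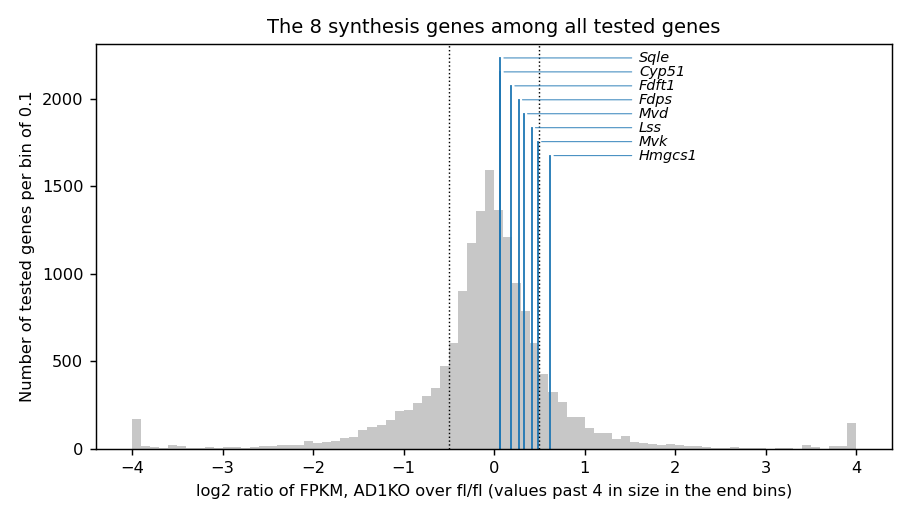
Number of tested genes (vertical axis) per bin of 0.1 in log2 of AD1KO FPKM over fl/fl FPKM (horizontal axis, values past 4 in size gathered in the end bins), with blue lines at the 8 synthesis genes and dotted lines at -0.5 and 0.5. The 8 lines fall to the right of 0, from 0.07 for Sqle to 0.62 for Hmgcs1, which alone passes the dotted line.

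The wider pathway was described with 19 synthesis genes, the 8 included, all of which were tested. Of these 19, 4 were past 0.5 and 1 past -0.5, with a median log2 ratio of 0.27. The 7 genes of the mevalonate part, from acetyl-CoA to farnesyl diphosphate, all had their whole interval above 0, with a median of 0.35. Acat2, the thiolase that makes acetoacetyl-CoA, was at 25.4 FPKM in fl/fl and 39.7 FPKM in AD1KO (log2 ratio 0.64, interval 0.52 to 0.77). Idi1, the isomerase of isopentenyl diphosphate, was at 14.9 and 19.0 FPKM (0.35, interval 0.21 to 0.49). Pmvk, the second kinase, was at 37.1 and 42.6 FPKM (0.20, interval 0.05 to 0.35).

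The 12 genes from squalene synthesis on were less uniform, with a median of 0.12 and 5 whole intervals above 0. Nsdhl, a sterol dehydrogenase of the demethylation steps, was at 36.0 FPKM in fl/fl and 58.2 FPKM in AD1KO and had the highest ratio of the 19 (0.69, interval 0.59 to 0.79). Dhcr7, the reductase that converts dehydrocholesterol to cholesterol, was at 16.8 and 21.3 FPKM (0.35, interval 0.21 to 0.48). Both enzymes act after Cyp51 in the pathway.

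Tm7sf2 and Lbr, a pair whose proteins both carry sterol reductase activity for the same step, went in opposite directions. Tm7sf2 was at 5.81 FPKM in fl/fl and 9.14 FPKM in AD1KO (0.65, interval 0.34 to 0.97). Lbr, which also anchors chromatin to the nuclear lamina, was at 6.29 and 4.0 FPKM (-0.65, interval -0.89 to -0.42). The remaining genes were near level. Hsd17b7 was at 2.38 and 2.70 FPKM (0.18, interval -0.11 to 0.48). Msmo1, Ebp and Sc5d, at 22.9, 39.5 and 24.7 FPKM in fl/fl, had log2 ratios of -0.02, -0.01 and -0.04, whose sign turned with the scaling of the libraries.

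**Figure D3:**
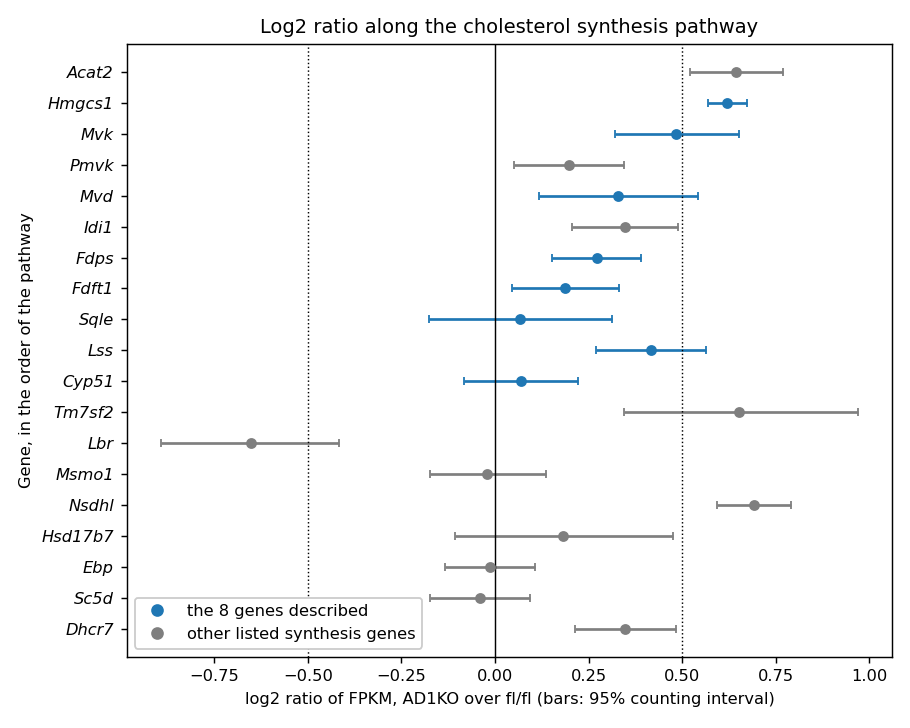
Log2 of AD1KO FPKM over fl/fl FPKM (horizontal axis) for 19 cholesterol synthesis genes in pathway order from top to bottom, with the 8 genes described in blue and the other listed genes in grey. Points are the ratios, bars the 95% counting intervals and dotted lines -0.5 and 0.5. The mevalonate genes at the top lie right of 0, Sqle and Cyp51 reach across it, Nsdhl is farthest right at 0.69 and Lbr farthest left at -0.65.

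By the deposited GO annotation, 4 of the 8 genes carry the term cholesterol biosynthetic process, 2 sterol biosynthetic process and 5 isoprenoid biosynthetic process. The first term held 23 tested genes, of which 9 were past 0.5 and 1 past -0.5, with a median of 0.35. For the second these were 4 and 2 of 14 genes (median 0.17), and for the third 2 and 1 of 13 (median 0.30). The terms overlap each other and the list of 19, and they hold genes that do not make sterols, so they are no separate evidence.

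The genes that sense sterols and switch the pathway gave no common direction, with 1 of 10 past 0.5, 1 past -0.5 and a median of 0.09. Insig1, which holds the SREBP complex in the endoplasmic reticulum and is itself an SREBP target, was at 75.3 FPKM in fl/fl and 145.8 FPKM in AD1KO (0.95, interval 0.89 to 1.01). Srebf2, the gene of SREBP2, was the lower one, at 11.1 and 7.60 FPKM (-0.54, interval -0.69 to -0.39). Its ratio kept its sign but fell short of -0.5 under trimmed mean of M-values scaling (-0.497), upper quartile scaling (-0.45) and a pseudocount of 1 FPKM (-0.49), which leaves 0 of the 10 past -0.5. The 8 genes and Insig1 thus had higher levels in the library where the Srebf2 transcript was lower, though the intervals of Sqle and Cyp51 held 0. The relation between these values was not tested. Srebf1, whose products favour fatty acid synthesis, was at 41.1 and 52.4 FPKM (0.35, interval 0.28 to 0.42).

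The escort protein gene Scap was at 8.54 and 9.36 FPKM (0.13, interval -0.03 to 0.29), and Insig2 at 16.2 and 17.8 FPKM (0.14, interval -0.02 to 0.28). The proteases that cleave SREBP were nearly level, with Mbtps1 at 18.1 and 18.6 FPKM (0.04) and Mbtps2 at 2.32 and 2.26 FPKM (-0.04, with a sign that turned with scaling). Of the oxysterol receptors, Nr1h3 (LXR alpha) was at 67.3 and 76.0 FPKM (0.18, interval 0.09 to 0.26), and Nr1h2 (LXR beta) at 47.6 and 38.9 FPKM (-0.29, interval -0.39 to -0.18). The ubiquitin ligase gene Rnf139 was at 8.34 and 6.82 FPKM (-0.29, interval -0.46 to -0.12).

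Receptors and adaptors of lipoprotein uptake were described because adipocytes obtain much of their cholesterol from lipoproteins. Of 9 listed genes, 3 were past 0.5 and none past -0.5, and the median log2 ratio was 0.00. Vldlr, a receptor for triglyceride-rich lipoproteins, was at 10.9 FPKM in fl/fl and 17.6 FPKM in AD1KO (0.69, interval 0.60 to 0.78). Lrpap1, a chaperone of receptors of this family, was at 71.9 and 107.0 FPKM (0.57, interval 0.51 to 0.63), and the sorting receptor Sort1 at 33.9 and 48.3 FPKM (0.51, interval 0.46 to 0.57). Lrp10 was at 49.4 and 47.4 FPKM, with a sign that turned with scaling.

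Fatty acid synthesis is the pathway most like this one, since SREBP proteins drive both. Of its 9 listed genes, 6 were past 0.5 and none past -0.5, with a median of 0.51, beside 1 of 8 and 0.30 for the cholesterol synthesis genes. Fasn, the fatty acid synthase, was at 84.1 FPKM in fl/fl and 175.6 FPKM in AD1KO (1.06, interval 1.03 to 1.09). Acss2, which makes acetyl-CoA from acetate, was at 38.2 and 70.5 FPKM (0.88, interval 0.80 to 0.97). Acly, the citrate lyase that supplies acetyl-CoA to both pathways, was at 37.8 and 57.5 FPKM (0.61, interval 0.54 to 0.67), and the desaturase Scd2 at 63.4 and 98.8 FPKM (0.64, interval 0.59 to 0.69). The interval of Hmgcs1 overlapped those of Acly, Scd2, Acaca and Acacb and lay below those of Fasn and Acss2. It lay above those of Scd1 (0.51, interval 0.50 to 0.52), Me1 (0.21, interval 0.18 to 0.25) and Elovl6 (0.08, interval -0.12 to 0.29). No test of a difference between these lists was possible with 1 library per group.

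**Figure D4:**
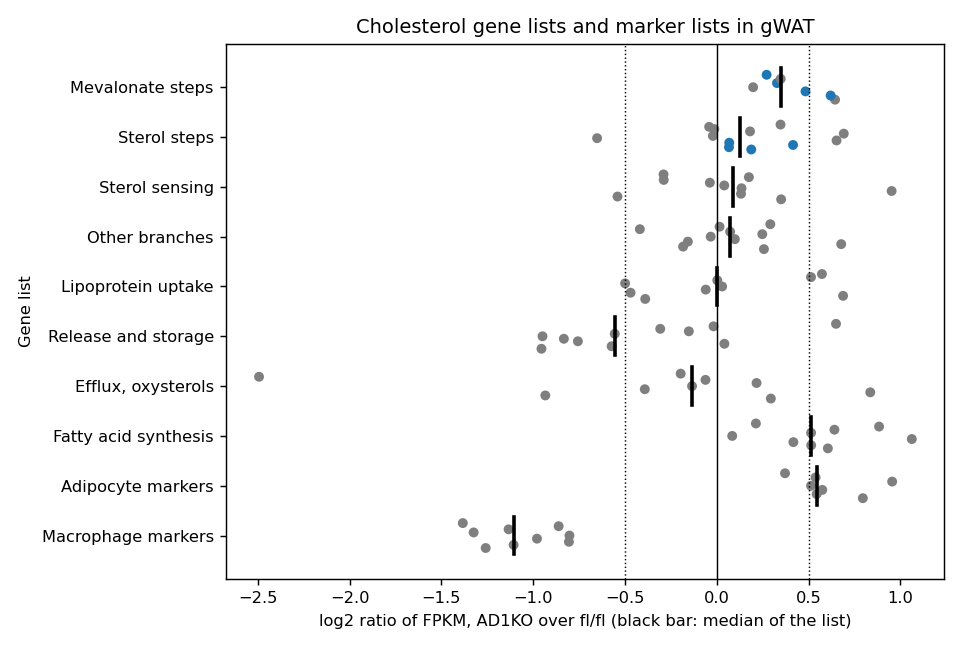
Log2 of AD1KO FPKM over fl/fl FPKM (horizontal axis) of each tested gene in 8 lists of cholesterol and fatty acid genes and 2 lists of cell markers (vertical axis), with the 8 genes described in blue, a black bar at each list's median and dotted lines at -0.5 and 0.5. The mevalonate steps (median 0.35) and fatty acid synthesis (0.51) lie right of 0 like the adipocyte markers (0.54), while release and storage genes (-0.56) and macrophage markers (-1.11) lie left of it.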

How the data were processed

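RNA-Seq of gWAT was analysed for 2 libraries, 1 pool of 4 female HFD-fed mice each for fl/fl and AD1KO. RRBS libraries were not used here. The authors' service provider selected poly(A) mRNA, aligned clean reads to mm9 and the authors deposited 1 table of FPKM per gene. The aligner, the quantifier and the use of strand are not given in the sources used here. The table also holds the authors' fold changes, P-values and FDR, which were not used. Columns were matched to groups through the library names in the labels.

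Values of 0.01, the lowest in the table, were taken as 0, a pseudocount of 0.01 FPKM was added, and genes with at least 0.1 FPKM in a library were tested. No test was made, since each group has 1 library, and tested here means compared by its ratio. Depth was found as the library size and length correction (119 bases) at which low values lay closest to whole reads. At that setting, 80.5% of 681 low values in fl/fl and 79.7% of 699 in AD1KO lay within 0.15 of a whole read. The estimated reads summed to 17863455 and 17633343. Counting intervals (95%) use these reads rounded to whole numbers. Reads carry no molecular identifiers in the table.

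The members, lists and alternatives were chosen with earlier results of these data known. The genes named are the 8 genes, all genes of the synthesis and sensing lists as counted here, and from other lists at most 4 genes past 0.5 with at least 1 FPKM; from the GO terms at most 5. Genes whose sign turned with scaling were named too, and the rest of the fatty acid list was named for comparison with Hmgcs1. Some genes of the pathway and of lipoprotein uptake are not reported here. They were left out of the lists, their counts and medians, and enter only the GO counts and those over all genes. The steps were tested on simulated data. Gene positions are from GENCODE vM1 on mm9, which matched 7 of the 8 symbols, and promoters from RefSeq. Tables were handled with pandas 2.3.3 and NumPy 2.4.6 in Python 3.11.15, intervals were computed with SciPy 1.17.1, and figures were drawn with Matplotlib 3.10.9.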

Additional observations from a re-analysis of the deposited data

How the results depend on the processing

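No paired analysis was possible because each group is 1 pooled library, and no replicate could be left out. Depth limits Sqle most, with an interval from -0.18 to 0.31. The ratios of the 8 genes kept their sign under each scaling, pseudocount and filter, and none of these settings could have turned it. Against 1 of the 8 past 0.5, trimmed mean of M-values and median of ratios scaling gave 2 and upper quartile scaling 3, since they shift each ratio up by 0.04, 0.04 and 0.09, and a limit of 1 gave 0. The 19 synthesis genes had 4 higher and 1 lower; a limit of 1 gave 0 and 0, and the whole interval past 0.5 left 0 lower. Against 2265 higher and 3029 lower of all genes, a pseudocount of 1 FPKM gave 965 and 1661, a limit of 1 gave 910 and 1417, the whole interval past 0.5 gave 665 and 1317, and a minimum of 1 FPKM gave 1281 higher. A stricter limit or fewer tested genes lowers these counts by construction. With upper quartile scaling the lower genes made up 48.3% of those past the limit, against 57.2%. The median of release and storage genes moved from -0.56 to -0.28 with a pseudocount of 1 FPKM. With that pseudocount Soat2, at 0.56 FPKM in fl/fl and 0.31 FPKM in AD1KO, passes the middle of the list, and the median gene changes from Stard3 to Stard5. The limit of 1 left 0 higher and 0 lower sensing genes, 0 higher uptake genes, 0 higher and 0 lower release and storage genes, 0 higher and 1 lower efflux genes, 1 higher fatty acid gene and 0 higher genes of other branches. The 1 lower sensing gene, Srebf2, was lost (0 left) under trimmed mean of M-values and upper quartile scaling, a pseudocount of 1 FPKM and the whole interval. The release and storage genes had 6 lower, 4 under upper quartile scaling and 3 with the whole interval. The 1 higher efflux gene, Abcg4, was lost (0 left) with a pseudocount or minimum of 1 FPKM and the whole interval, and the 1 higher gene of other branches, Pdss2, with that pseudocount and the whole interval (0 left). Under upper quartile scaling Hmgcs1 was at 0.71 and Insig1 at 1.04.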

Other observations

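Genes that free, store and move cholesterol inside the cell went mostly the other way from the synthesis genes. Of 11 listed genes, 6 were past -0.5 and 1 past 0.5, with a median log2 ratio of -0.56. Lipa, the lysosomal acid lipase that frees cholesterol from lipoprotein esters, was at 178 FPKM in fl/fl and 91.7 FPKM in AD1KO (-0.95, interval -1.01 to -0.90). Nceh1, a cholesteryl ester hydrolase, was at 17.9 and 9.25 FPKM (-0.95, interval -1.08 to -0.82), and Soat1, which esterifies cholesterol, at 13.4 and 7.91 FPKM (-0.76, interval -0.90 to -0.62). Cav1, the caveolar coat protein abundant in adipocytes, was past 0.5 at 777 and 1219 FPKM (0.65, interval 0.63 to 0.67). Npc2, which carries cholesterol out of lysosomes, also had its whole interval above 0, at 403 and 415 FPKM (0.04, interval 0.02 to 0.07). Osbp, an oxysterol-binding transport protein, was at 9.14 and 9.03 FPKM, with a sign that turned with scaling. Macrophages also express Lipa, Nceh1 and Soat1, and the 9 macrophage markers were lower throughout, from -1.38 to -0.80. Their part in these values was not tested.

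Among 9 efflux and oxysterol genes, 2 were past -0.5 and 1 past 0.5 (median -0.13). Ch25h, which makes an oxysterol that restrains SREBP, was at 2.13 and 0.37 FPKM, about 47 and 8 reads (-2.49, interval -3.83 to -1.44). Abcg1, a cholesterol exporter, was at 35.4 and 18.5 FPKM (-0.93, interval -1.02 to -0.85). The exporter Abca1 went the other way, at 24.0 and 29.4 FPKM (0.29, interval 0.22 to 0.37), and the gene past 0.5 was Abcg4, at 0.27 and 0.49 FPKM (0.84, interval -0.07 to 1.79), from about 17 and 30 reads. Npc2, Abca1 and Abcg4 lie outside the rule for named genes and were chosen after their values were seen. Cyp46a1 was at 0.47 and 0.45 FPKM, with a sign that turned with scaling. Of the 11 genes of other mevalonate branches, 1 was past 0.5 and none past -0.5 (median 0.07). It was Pdss2, of ubiquinone synthesis, at 1.74 and 2.79 FPKM (0.68, interval 0.16 to 1.22). Fnta, a prenyltransferase subunit, was at 37.2 and 36.3 FPKM, again with a sign that turned.

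The genes with the largest ratios under the cholesterol GO terms, outside the lists, were apolipoprotein genes best known from liver and intestine. Apoa2 was at 27.6 FPKM in fl/fl and 62.0 FPKM in AD1KO (1.17, interval 0.92 to 1.42). Apoc1 was at 88.3 and 188.5 FPKM (1.09, interval 0.94 to 1.25), and Apoc3 at 9.11 and 18.8 FPKM (1.04, interval 0.60 to 1.49). Apoa5 and Apoa4 were lower in level, at 0.54 and 1.73 FPKM and at 1.31 and 3.75 FPKM, from about 21 and 67 and from about 36 and 102 reads. The terms cholesterol homeostasis, cholesterol efflux and those naming the receptor of low-density lipoprotein particles had 12, 6 and 8 genes past 0.5 and 10, 5 and 1 past -0.5, of 53, 21 and 30 tested.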
